A study of Mus musculus with 6 samples.

Results

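The mitochondrially encoded respiratory chain genes considered here were 10 genes named by symbol, *mt-Nd1*, *mt-Nd2*, *mt-Nd4*, *mt-Nd5*, *mt-Co1*, *mt-Co2*, *mt-Co3*, *mt-Cytb*, *mt-Atp6* and *mt-Atp8*, out of 54331 genes in the deposited table and out of 13 protein genes of the mouse mitochondrial genome. *mt-Nd3*, *mt-Nd4l* and *mt-Nd6* of the same genome were outside the list. All 10 were found, and all 10 passed the minimum for testing, an average of 1 TPM over the 6 libraries (TPM is a level corrected for transcript length that adds up to 1000000 in each library).

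The cells were mouse embryonic fibroblasts (MEFs) pooled from several male E13.5 embryos of an Oct4-EGFP transgenic mouse on a mixed C57BL/6, DBA/2 and ICR background. Both groups had received, by retrovirus, OCT4, SOX2 and KLF4 together with AKT-MER, a myristoylated AKT kinase fused to a modified estrogen receptor, a combination abbreviated OSKA. The 3 wells of the OSKA + 4OHT group were given 4-hydroxytamoxifen (4OHT), the ligand that activates AKT-MER, and the 3 wells of the OSKA − 4OHT group were given ethanol, the vehicle. RNA was taken at 10 days postinfection (dpi) and sequenced from polyA libraries, 1 per well. The wells came from 1 infected pool, so p-values measure the spread between wells, and no libraries of cells lacking AKT-MER were analysed here, so an effect of 4OHT itself and of AKT activation cannot be told apart. In bulk RNA a change in the number of cells of a type and a change in RNA per cell cannot be told apart either.

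The mitochondrial genome is a small circle that is copied and transcribed inside the organelle by its own polymerases. Its protein genes encode core subunits of the respiratory chain, which pumps protons across the inner membrane (complexes I, III and IV), and of ATP synthase, which uses the proton gradient (complex V). Nearly all of the genes lie on 1 strand, are transcribed as long precursors and are cut apart at the tRNA genes between them. The mature mRNAs carry short polyA tails, so a polyA library holds them. The organelle's rRNAs and tRNAs come from the same genome, and all other subunits and the proteins that transcribe, process and translate these mRNAs are encoded in the nucleus.

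Coordinates and sequences are those of GENCODE M21 on GRCm38, a release that may differ from the one behind the deposited values. On that build the members run along the plus strand of chromosome M from *mt-Nd1*, at chrM:2751-3707, to *mt-Cytb*, at chrM:14145-15288. Their 3′ ends are printed first because they show how these reading frames close. The last 24 bases of each are given 5′ to 3′, with the annotated stop codon, whole or partial, in capitals.
mt-Nd1: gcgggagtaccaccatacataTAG
mt-Nd2: ctagccccccaactaattaccTAG
mt-Nd4: aactaattacaggcctgacaataT
mt-Nd5: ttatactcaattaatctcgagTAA
mt-Cytb: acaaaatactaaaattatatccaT
mt-Co1: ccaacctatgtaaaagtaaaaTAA
mt-Co2: aactgatctgcttcaataattTAA
mt-Co3: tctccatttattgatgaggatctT
mt-Atp6: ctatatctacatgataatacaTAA
mt-Atp8: cctcattcattaccccaacaaTAA
*mt-Nd4*, *mt-Cytb* and *mt-Co3* end in 1 base of a stop codon, which in mitochondria is known to be completed to TAA by the polyA tail. The other 7 members are annotated with a whole stop codon. For *mt-Nd1* and *mt-Nd2* that codon runs into the tRNA gene that follows on the same strand. *mt-Nd1* ends at chrM:3707 and *mt-Ti* starts at chrM:3706, and *mt-Nd2* ends at chrM:4951 and *mt-Tw* starts at chrM:4950. The last base of *mt-Atp6* is also the first of *mt-Co3*. Whether the mature mRNAs of these genes keep the whole codon was not tested.

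*mt-Atp8* and *mt-Atp6* overlap. The whole of *mt-Atp8* (chrM:7766-7969, 204 bases) is shown because its short length bears on its level, with the 43 bases that also begin *mt-Atp6* in capitals.
mt-Atp8: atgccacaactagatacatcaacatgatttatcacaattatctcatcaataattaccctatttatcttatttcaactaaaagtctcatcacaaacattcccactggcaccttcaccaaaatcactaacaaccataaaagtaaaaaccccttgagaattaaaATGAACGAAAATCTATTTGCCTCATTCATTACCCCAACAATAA
The 2 proteins are made from 1 shared mRNA in different reading frames, so their deposited levels are not measurements of separate molecules. *mt-Atp6* and *mt-Co3* overlap by 1 base, and *mt-Nd5* overlaps *mt-Nd6* on the opposite strand by 14 bases.

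A second set of sequences is shown because several members have an identical copy in the nuclear genome. A block of 4663 bases on chromosome 1 (chr1:24611535-24616197, minus strand) holds 7 annotated genes, each a stretch of mitochondrial sequence. Of the 7, *Gm28437* repeats *mt-Co3* over 783 of its 784 bases, *Gm10925* repeats *mt-Atp6* over 678 of 681 bases and *Gm28661* repeats *mt-Co2* over 681 of 684 bases, with 0 differences in each. The last 30 bases of each member are given above the end of its copy, with the bases that the annotated copy lacks in capitals.
mt-Co3: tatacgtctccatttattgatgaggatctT
Gm28437: tatacgtctccatttattgatgaggatct
mt-Atp6: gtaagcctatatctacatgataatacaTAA
Gm10925: gtaagcctatatctacatgataataca
mt-Co2: ttcgaaaactgatctgcttcaataattTAA
Gm28661: ttcgaaaactgatctgcttcaataatt
The copies are annotated without the stop codon, and that is the only difference between the paired transcripts. *Gm28439* repeats the first 876 of the 1378 bases of *mt-Nd4* without a difference. *mt-Atp8* has no annotated copy in the block, where 233 bases between *Gm10925* and *Gm28661* hold 0 annotated genes.

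The reads of the study were 50 bases long, so the sharing was counted in windows of 50 bases. For *mt-Co2*, 635 of 635 windows also occurred in an annotated nuclear gene. For *mt-Co3* the count was 734 of 735, for *mt-Atp6* 629 of 632, for *mt-Nd4* 827 of 1329 and for *mt-Co1* 765 of 1496. *mt-Nd2* shared 81 of 989 windows and *mt-Nd5* 135 of 1775, and *mt-Nd1*, *mt-Cytb* and *mt-Atp8* shared 0. A read from a shared window carries no base that tells the gene from its copy. The deposited levels of *mt-Co2*, *mt-Co3* and *mt-Atp6*, and in part of *mt-Nd4*, are therefore uncertain taken alone, and each is given below also with the TPM of its copies added.

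The first question was whether the level of the mitochondrial mRNAs differed between AKT-activated and nonactivated cells. None of the 10 members passed the test. In limma's trend test over 15382 genes, 0 of the 10 members were called (adjusted p under 0.05 with a change of more than 2-fold), where the same rule called 4.23% of all tested genes, 2.87% as higher and 1.37% as lower. At an adjusted p under 0.05 alone, 0 of 10 members passed, against 5.49% of all tested genes. At an unadjusted p under 0.05 the count was again 0 of 10, against 21.3% of all tested genes. The groups overlapped for 10 of 10 members, whereas the groups did not overlap for 28.2% of all tested genes. The log2 fold changes ran from −0.18 (*mt-Atp8*) to 0.19 (*mt-Nd5*), with 5 of 10 above 0. Their median was 0.012, beside a median of 0.14 over all tested genes. A p that misses the threshold does not show equal levels, so the interval of each difference is given with the values.

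**Figure D1:**
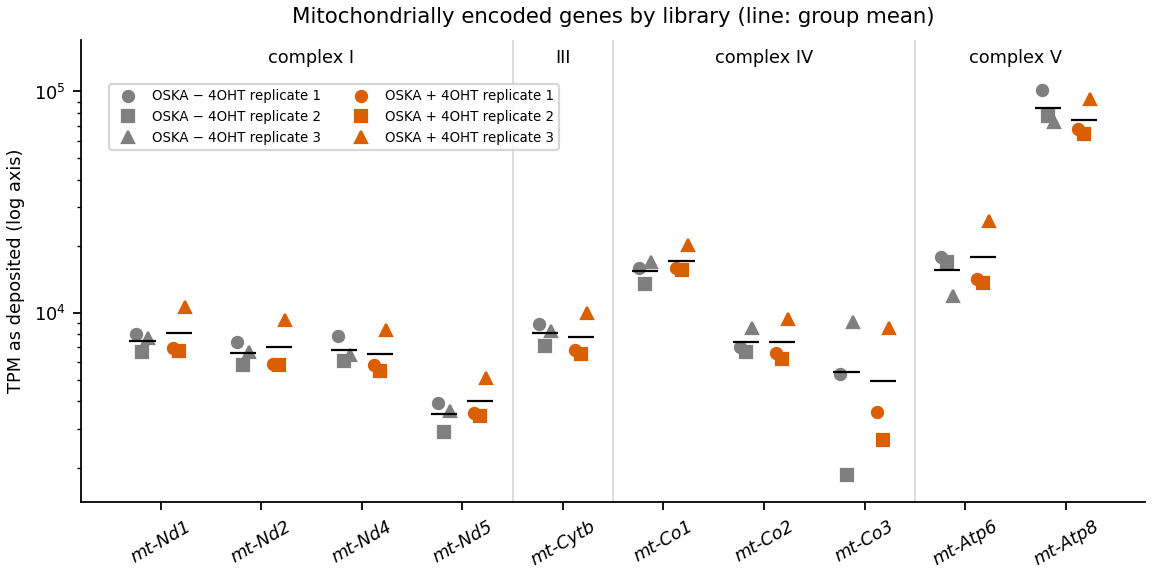
Deposited TPM (log axis) of each member in the 6 libraries, grouped by respiratory complex, with a horizontal line at each group mean. The groups overlap for all 10 genes, OSKA + 4OHT replicate 3 is the highest library for 8 of them, and *mt-Co3* has the widest spread, from 1847 to 9097 TPM.

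The complex I members encode hydrophobic core subunits of NADH dehydrogenase, the entry point of electrons from NADH. *mt-Nd1*, which has no shared windows, measured 8028, 6672 and 7677 TPM in replicates 1, 2 and 3 of OSKA − 4OHT, the order used throughout, and 6964, 6763 and 10609 TPM in those of OSKA + 4OHT. Replicates 1 and 2 of OSKA + 4OHT lay within the range of the OSKA − 4OHT group and replicate 3 lay above it. Group means were 7459 ± 704 and 8112 ± 2165 TPM (SD, n = 3 each). The log2 fold change was 0.094, with a 95% interval of the fold from 0.781 to 1.46 (limma adjusted p = 0.812).

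*mt-Nd2* was highest in the same library, with 7380.3, 5842 and 6628 TPM in OSKA − 4OHT and 5862, 5811 and 9273 TPM in OSKA + 4OHT. Its fold interval was 0.740 to 1.45. *mt-Nd5*, the longest member at 1824 bases, had the lowest mean of the 10, with 3923, 2909 and 3624 TPM against 3515, 3422 and 5057 TPM. It had the highest log2 fold change of the 10, 0.19 (SE 0.187, fold interval 0.832 to 1.55, limma adjusted p = 0.608). *mt-Nd4* read 7833, 6059.7 and 6435 TPM in OSKA − 4OHT and 5832, 5447 and 8356 TPM in OSKA + 4OHT. Its log2 fold change was −0.067 (fold interval 0.701 to 1.30). With *Gm28439* added, it read 12016, 8718 and 9981 TPM in OSKA − 4OHT and 8804, 9010 and 13841 TPM in OSKA + 4OHT. The highest library was then 1.59 times the lowest, against 1.53 times as deposited. Its log2 fold change turned to 0.023 with the addition (fold interval 0.722 to 1.43). For each of the 4 genes, OSKA + 4OHT replicate 3 was the highest library, and the other 2 libraries of that group lay close together.

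*mt-Cytb* encodes cytochrome b, the only mitochondrially encoded subunit of complex III. Its levels were 8927, 7066 and 8288 TPM in OSKA − 4OHT and 6823, 6555 and 10017 TPM in OSKA + 4OHT. Both the highest and the lowest library belonged to the OSKA + 4OHT group. The log2 fold change was −0.074 (SE 0.182, fold interval 0.701 to 1.29, limma adjusted p = 0.849).

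The complex IV members encode the 3 core subunits of cytochrome c oxidase, where oxygen is reduced. *mt-Co1*, the catalytic subunit, had the narrowest interval as deposited. The libraries read 15929.6, 13509 and 16961 TPM in OSKA − 4OHT and 15906, 15622 and 20205 TPM in OSKA + 4OHT. Group means were 15467 ± 1772 and 17244 ± 2568 TPM (SD, n = 3 each). OSKA + 4OHT replicate 3 was the highest of the 6, and the other 2 libraries of that group lay between the lowest and the second highest OSKA − 4OHT library. The log2 fold change was 0.15 (SE 0.133, fold interval 0.891 to 1.39), and its adjusted p of 0.561 by limma was the lowest of the 10.

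*mt-Co3* was the least certain member. Its deposited levels were 5324, 1847 and 9097 TPM in OSKA − 4OHT and 3579, 2672 and 8516 TPM in OSKA + 4OHT, a coefficient of variation (CV) of 66.9% and 63.9%. The highest library was 4.93 times the lowest, and both belonged to the OSKA − 4OHT group. *Gm28437*, the nuclear copy, ran the other way through the OSKA − 4OHT libraries, at 9080.0, 11403 and 6263 TPM, and through the OSKA + 4OHT libraries, at 8425, 9781 and 6825 TPM. Within each group the library with the lowest *mt-Co3* had the highest *Gm28437*. The sum of the 2 was 14404, 13249.6 and 15359.5 TPM in OSKA − 4OHT and 12005, 12454 and 15341 TPM in OSKA + 4OHT, a CV of 7.37% and 13.6%, and its highest library was 1.28 times its lowest. With the copy added, the interval of the fold narrowed from 0.318 to 2.96 to 0.766 to 1.11, and the groups still overlapped.

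*mt-Co2* encodes the subunit that receives electrons from cytochrome c. The deposited levels were 7046, 6649 and 8547 TPM in OSKA − 4OHT and 6559, 6181 and 9385 TPM in OSKA + 4OHT. Its copy *Gm28661* was listed at a like level, from 6587 to 8825 TPM, and a partial copy on chromosome 2, *Gm13341*, at 69.6 to 103 TPM. With both copies added, the OSKA − 4OHT libraries came to 15553, 14965 and 15203 TPM, a CV of 1.94% in place of 13.5%. The OSKA + 4OHT libraries came to 14672, 13836 and 18313 TPM. The direction turned with the addition, from a log2 fold change of −0.025 (fold interval 0.726 to 1.33) to 0.024 (0.847 to 1.22).

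The complex V members encode 2 subunits of the membrane part of ATP synthase. *mt-Atp6*, the proton channel subunit, had the second widest interval, with 17948, 16984 and 11902 TPM in OSKA − 4OHT and 14241, 13715 and 25961 TPM in OSKA + 4OHT. *Gm10925*, its copy, read 8051, 6095 and 10573 TPM and 5824, 5165 and 2683 TPM in the same libraries. The library with the lowest *mt-Atp6* had the highest *Gm10925*, and the library with the highest *mt-Atp6* had the lowest *Gm10925*. Of the sum with copies, *mt-Atp6* took 53.0% in OSKA − 4OHT replicate 3 and 90.0% in OSKA + 4OHT replicate 3. With copies added the direction turned, from a log2 fold change of 0.16 (fold interval 0.698 to 1.79) to −0.10 (0.708 to 1.23), and the group means were 23868 ± 1874 and 22613 ± 5425 TPM (SD, n = 3 each).

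**Figure D2:**
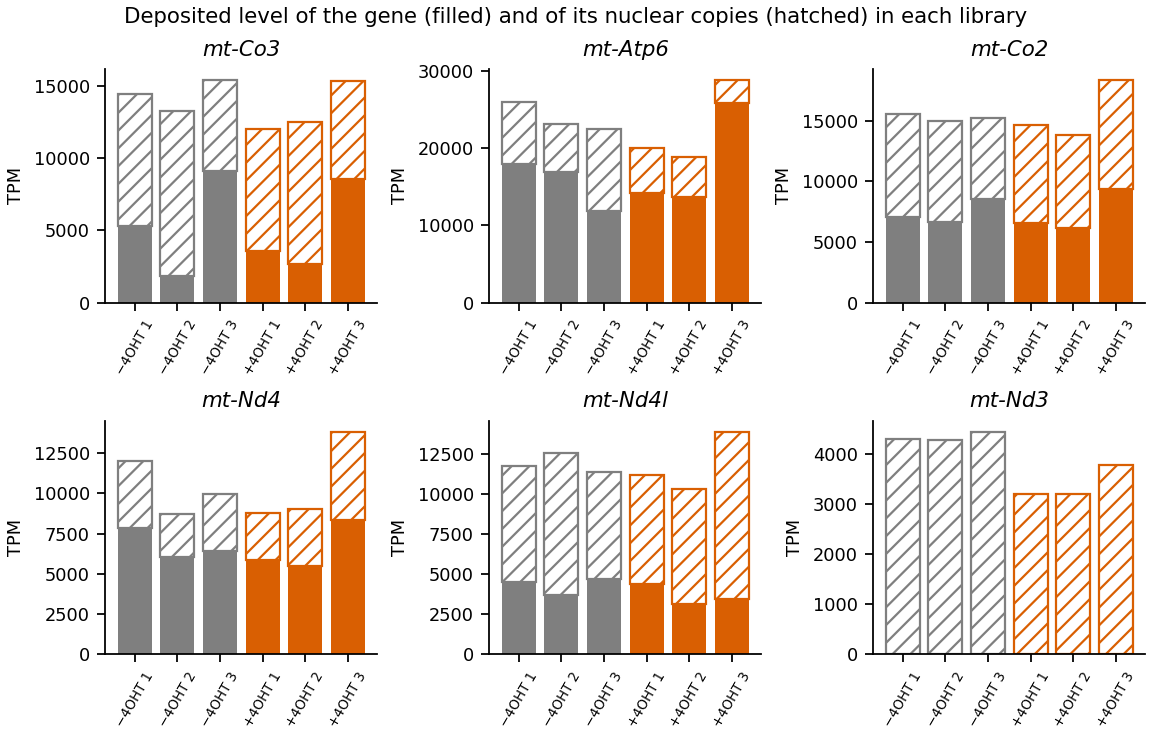
Deposited TPM of 6 mitochondrial genes (filled) and of the annotated nuclear genes that share windows of sequence with them (hatched), stacked for each library, OSKA − 4OHT in grey and OSKA + 4OHT in orange. For *mt-Co3* the filled part varies 4.93-fold across the 6 libraries and the whole bar 1.28-fold, and *mt-Nd3* has no filled part in any library.

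*mt-Atp8* was the highest gene of the whole table, with 102043, 77636 and 72932 TPM in OSKA − 4OHT and 67411, 64507 and 92045 TPM in OSKA + 4OHT. The lowest 2 libraries were OSKA + 4OHT, but so was the second highest. Group means were 84203 ± 15627 and 74654 ± 15131 TPM (SD, n = 3 each). The log2 fold change was −0.18 (SE 0.179, fold interval 0.657 to 1.19, limma adjusted p = 0.609). TPM divides by an effective length, the transcript length less the fragment length, and a 204-base transcript is shorter than a usual fragment. The deposited tRNA values of each library were whole multiples of a common step, within a tolerance of 0.001 of the count, and if that step is 1 read on an effective length of 3 bases, *mt-Atp8* came out whole at an effective length of 10 bases in 6 of 6 libraries. On that reading the gene was backed by 1177, 1857 and 1098 reads in OSKA − 4OHT and by 1482, 1508 and 1794 reads in OSKA + 4OHT. The exact Poisson 95% interval of these counts reached at most 5.83% below and 6.09% above the count, which covers counting error only. The counts are inferred from TPM and are uncertain, since of 39 low values of other genes of a like length only 10 were whole multiples of the same step.

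If the step is 1 read, the relative depth of the libraries was 0.482, 1 and 0.629 in OSKA − 4OHT and 0.919, 0.977 and 0.815 in OSKA + 4OHT, taking the deepest as 1. On the same scale *mt-Co1*, at 1545 bases, was backed by about 23812 to 51037 reads. *mt-Atp8* thus had the higher TPM in 6 of 6 libraries on fewer reads, and it made up 45.3% to 53.9% of the summed TPM of the 13 protein genes.

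The order of the levels was read with copies added, since the deposited split moved it. *mt-Atp8* was above *mt-Atp6* in 6 of 6 libraries, and *mt-Atp6*, at a mean of 23240.5 TPM over the 6, was above *mt-Co1* (16374 TPM) in 6 of 6. *mt-Co1* was above *mt-Co2* (15424 TPM) in 5 of 6 libraries and *mt-Co2* above *mt-Co3* (13802 TPM) in 5 of 6, so these 3 subunits of 1 complex were close to each other. *mt-Co3* was above *mt-Nd4* (10395 TPM) in 6 of 6, and *mt-Nd4* above *mt-Cytb* (7946 TPM) in 6 of 6. *mt-Cytb* and *mt-Nd1* (7785 TPM) did not separate, with *mt-Cytb* higher in 3 of 6 libraries. *mt-Nd1* was above *mt-Nd2* (6802 TPM), and *mt-Nd2* above *mt-Nd5* (3743 TPM), in 6 of 6. As deposited, *mt-Co2* and *mt-Co3* fell to ranks 6 and 9 of the 10 and *mt-Atp6* was above *mt-Co1* in only 3 of 6 libraries.

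**Figure D3:**
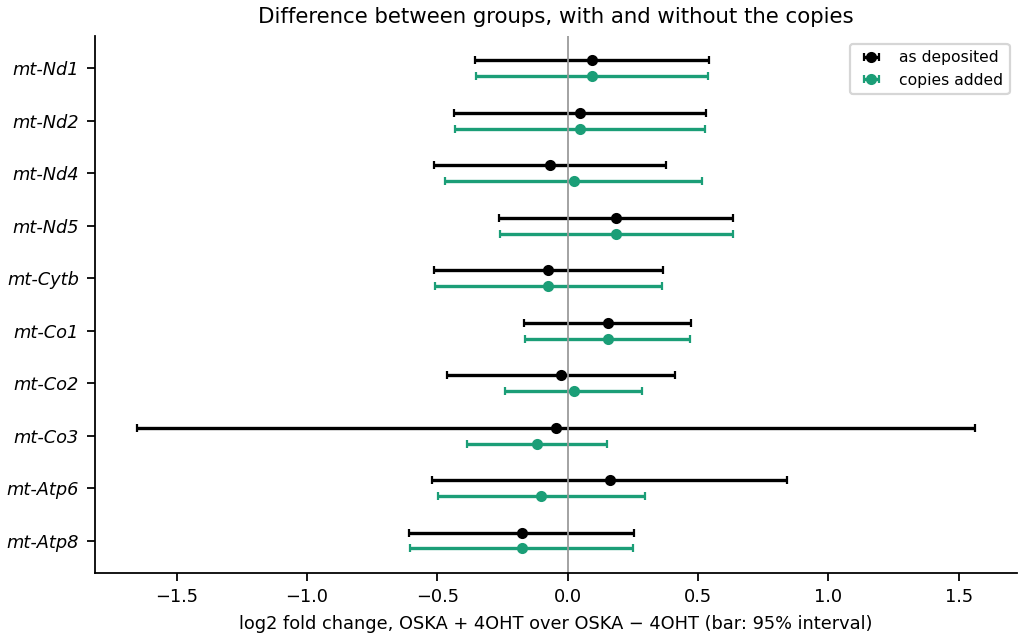
Log2 fold change of each member, OSKA + 4OHT over OSKA − 4OHT, with its 95% interval from limma, as deposited (black) and with the nuclear copies added (green). Every interval crosses 0, and that of *mt-Co3* narrows from −1.65 to 1.56 to −0.39 to 0.15 when its copy is added.

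The members tended to be high and low in the same libraries. OSKA + 4OHT replicate 3 was the highest library for 8 of 10 members, and the lowest was OSKA + 4OHT replicate 2 for 5 and OSKA − 4OHT replicate 2 for 4. The exceptions at the top were *mt-Atp8*, highest in OSKA − 4OHT replicate 1, and *mt-Co3*, highest in OSKA − 4OHT replicate 3. The ratio of *mt-Nd2* to *mt-Nd1*, neighbours in the genome, stayed between 0.842 and 0.919 in the 6 libraries, while each gene alone ranged 1.60-fold and 1.59-fold. The ratio of *mt-Nd5* to *mt-Nd1* ran from 0.436 to 0.506 and that of *mt-Cytb* to *mt-Nd1* from 0.944 to 1.11. Other members followed *mt-Nd1* less closely. The ratio of *mt-Atp8*, which has no shared windows, to *mt-Nd1* ran from 8.68 to 12.7, a 1.46-fold range. The ratios of *mt-Atp6* and *mt-Co3* ranged 1.64-fold and 4.28-fold as deposited and 1.28-fold and 1.38-fold with copies added. With copies added the range for *mt-Nd4* narrowed from 1.24-fold to 1.18-fold and that for *mt-Co2* widened from 1.27-fold to 1.30-fold.

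With OSKA + 4OHT replicate 3 left out, the log2 fold changes of *mt-Nd1*, *mt-Nd2* and *mt-Atp6* turned from above 0 to below 0, to −0.12, −0.17 and −0.14. The median of the 10 members went from 0.012 to −0.19, and *mt-Nd5* went from 0.19 to 0.0041. In that fit 0 of 10 members were called, and the lowest limma adjusted p of a member was 0.272. The member median was 0.186 without OSKA + 4OHT replicate 2 and 0.125 without OSKA + 4OHT replicate 1. The median of all tested genes in those 2 fits was 0.114 and 0.112. Leaving out OSKA − 4OHT replicates 1, 2 and 3 in turn gave member medians of 0.105, −0.069 and 0.067.

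Summed over the 10 members, the mitochondrial mRNAs took 18.4%, 14.5% and 15.2% of all TPM in OSKA − 4OHT and 13.7%, 13.1% and 19.9% in OSKA + 4OHT. The OSKA + 4OHT group held both the lowest and the highest share. The means were 16.1% ± 2.09 and 15.6% ± 3.81 (SD, n = 3 each), a difference of −0.49 percentage points (exact permutation test, two-sided, p = 0.8, where 3 wells against 3 can reach no lower than 0.1). *mt-Atp8* alone made up 6.45% to 10.2% of all TPM. The other 9 members took 8.23%, 6.75% and 7.92% in OSKA − 4OHT and 6.93%, 6.62% and 10.7% in OSKA + 4OHT (exact p = 0.9). Without *mt-Atp8* the difference had the other sign, 0.46 percentage points. The nuclear copies of members took 2.71% to 2.98% in OSKA − 4OHT and 2.41% to 2.62% in OSKA + 4OHT, groups that did not overlap (exact p = 0.1), and with copies added to the members the shares overlapped again (exact p = 0.6). With each gene weighted by its effective length, which comes nearer to a share of reads, the members took 5.75% to 7.09% in OSKA − 4OHT and 5.82% to 9.31% in OSKA + 4OHT.

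**Figure D4:**
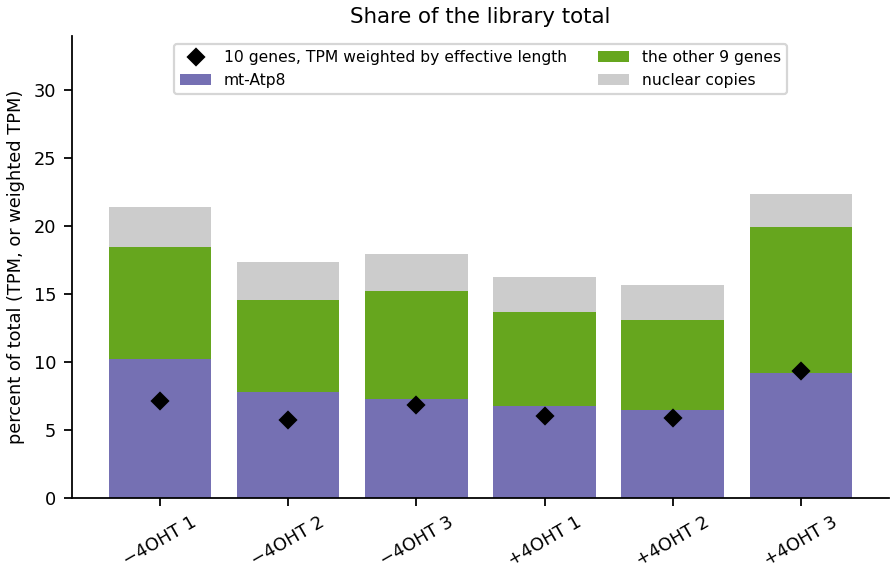
Percent of the TPM total of each library taken by *mt-Atp8*, by the other 9 members and by the nuclear copies that share windows with members (stacked bars), and percent of TPM weighted by effective length taken by the 10 members (diamonds). The bars of OSKA + 4OHT replicate 3 and OSKA − 4OHT replicate 1 stand above the other 4 libraries.

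By complex, the deposited sums overlapped between groups in 4 of 4 comparisons. Complex I members came to 24337 ± 2841 TPM in OSKA − 4OHT and 25637 ± 6643 TPM in OSKA + 4OHT (SD, n = 3 each). Complex IV members came to 28303 ± 6300 and 29541 ± 7458 TPM, and complex V members, mostly *mt-Atp8*, to 99815 ± 18145 and 92626 ± 22046 TPM. The lowest exact p of the 4 was 0.5 (0.9 after Benjamini-Hochberg adjustment over 4). With copies added the complex IV sum was 45064 ± 2990 and 46134 ± 6717 TPM, and the lowest exact p was again 0.5.

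The make-up of the mitochondrial mRNA pool was compared as the percent of the summed TPM of the 13 protein genes. *mt-Nd5* took 2.07%, 1.95% and 2.31% in OSKA − 4OHT and 2.48%, 2.55% and 2.49% in OSKA + 4OHT, and *mt-Nd1* took 4.24%, 4.47% and 4.89% against 4.92%, 5.04% and 5.22%. For these 2 genes every OSKA + 4OHT library was above every OSKA − 4OHT library, though by a narrow gap for *mt-Nd1*. Both reached the smallest p the design allows, 0.1 in the exact permutation test, and 0.65 after adjustment over 13 genes, so neither passes. The groups of the other 8 members overlapped. *mt-Nd4* took 4.06% to 4.14% in the 6 libraries as deposited, a split that is uncertain for this gene. With copies added and *mt-Atp8* left out, an alternative chosen after seeing the data, the groups again did not overlap for *mt-Nd1* and *mt-Nd5*, nor for *mt-Nd3*, which went the other way, at 3.34% to 3.77% in OSKA − 4OHT and 2.52% to 3.001% in OSKA + 4OHT (exact p = 0.1, adjusted p = 0.4 over 12 genes, for each of the 3). *mt-Nd4* then ran from 7.69% to 9.34%, a wider range than that of *mt-Cytb*, 6.17% to 6.94%.

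The other mitochondrial protein genes give a limit to what the table can show. *mt-Nd3*, a small complex I subunit, was listed at 0 in 6 of 6 libraries. Its copy *Gm28438* (chr1:24612775-24613119), which shares 293 of the 299 windows of *mt-Nd3*, carried 4289.7, 4272 and 4435 TPM in the OSKA − 4OHT libraries and 3184, 3186 and 3768 TPM in the OSKA + 4OHT libraries. Over the 345 bases of the copy the 2 transcripts differ by 1 substitution, T3C, counted from 1 at the first base of *mt-Nd3*, and the copy lacks the last 3 of the 348 bases of *mt-Nd3*. The first 30 bases of each are shown with that base in capitals.
mt-Nd3: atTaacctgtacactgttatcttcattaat
Gm28438: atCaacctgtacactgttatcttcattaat
The level listed under the copy was lower in every OSKA + 4OHT library. The sum of the pair had a log2 fold change of −0.36 (SE 0.0881) and a limma adjusted p of 0.0697, so it was not called.

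*mt-Nd4l*, read from the same mRNA as *mt-Nd4*, shared 245 of 248 windows with *Gm10222* and was listed at 3124 to 4674 TPM, with 24.6% to 41.2% of the pair under the mitochondrial name. Its log2 fold change was −0.24 as deposited and −0.022 with the copy added. *mt-Nd6*, the one protein gene on the other strand, stood at 300.2 to 429.8 TPM in OSKA − 4OHT and 329 to 478 TPM in OSKA + 4OHT. The rRNA genes *mt-Rnr1* and *mt-Rnr2*, whose RNAs carry short tails and are poorly kept in polyA libraries, were at 380.4 to 504 TPM and 789 to 1033 TPM. None of these was called, with limma adjusted p from 0.451 to 0.890 as deposited for the 4 that could be tested.

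Of the nuclear subunits of the same complexes, 1 passed the test. For complex I, 32 of 36 tested genes had a log2 fold change above 0, where 59.3% of all tested genes did, and their median was 0.30, beside 0.14 over all tested genes. In complex I 1 of 36 rose at an adjusted p under 0.05, where 3.52% of all tested genes rose and 1.97% fell. That gene was *Ndufa3*, an accessory subunit, at 123, 92.4 and 146 TPM in OSKA − 4OHT and 230.1, 386 and 466 TPM in OSKA + 4OHT. Its log2 fold change was 1.54 (SE 0.300, limma adjusted p = 0.0400), and the adjusted p was above 0.05 in 9 of 14 alternative fits, at up to 0.144. Complex III had a median of 0.42 over 9 genes, complex IV 0.10 over 11 and complex V 0.18 over 15, with 0 genes past the threshold in each. The OSKA + 4OHT and OSKA − 4OHT libraries did not overlap for 13 of the 36 complex I genes, 4 of 9, 5 of 11 and 2 of 15 in the other complexes, beside 28.2% of all tested genes.

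**Figure D5:**
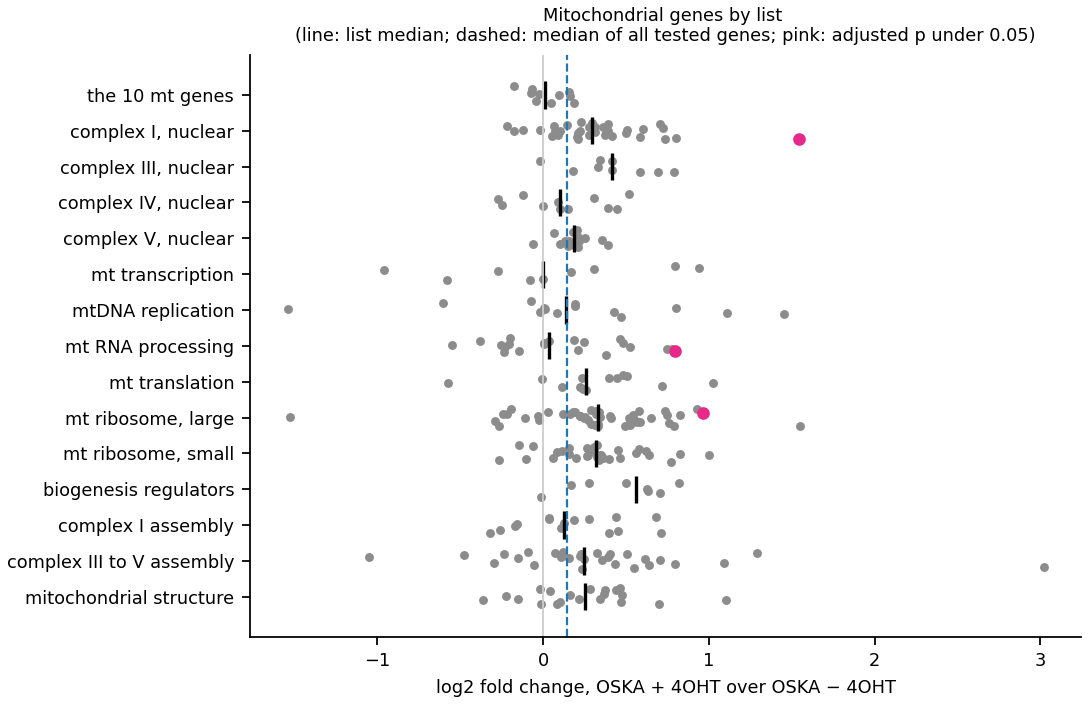
Log2 fold change of every tested gene of the 10 members and of 14 lists of nuclear genes with mitochondrial functions, with a black line at each list's median and a dashed line at 0.14, the median of all tested genes. The members sit between −0.18 and 0.19, and 3 nuclear genes, *Ndufa3*, *Pnpt1* and *Mrpl27*, have an adjusted p under 0.05.

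At an adjusted p under 0.05, 0 of 9 factors that transcribe the mitochondrial genome passed in either direction, against 5.49% of all tested genes. *Polrmt*, the mitochondrial RNA polymerase, read 7.03, 17.0 and 19.8 TPM in OSKA − 4OHT and 7.05, 6.61 and 6.29 TPM in OSKA + 4OHT. OSKA − 4OHT replicate 1 lay among the OSKA + 4OHT libraries. Its log2 fold change was −0.96 (SE 0.395, limma adjusted p = 0.231). Without that library it was −1.40, with a limma adjusted p of 0.0436. In the other 13 of 14 alternative fits the adjusted p was above 0.05, at up to 0.428. Over the 14 fits the log2 fold change ran from −1.40 to −0.68. *Tfb2m*, which opens the promoter with the polymerase, was at 16.1 to 22.5 TPM and 12.7 to 13.8 TPM, with groups that did not overlap (log2 fold change −0.58, limma adjusted p = 0.157). *Tfam*, which packages and bends the mitochondrial DNA, had means of 25.2 ± 3.02 and 26.6 ± 11.5 TPM (SD, n = 3 each), with 39.8 TPM in OSKA + 4OHT replicate 1. OSKA + 4OHT replicate 3, the highest library for 8 members, was the lowest for *Polrmt*, though the OSKA + 4OHT values of *Polrmt* lay close together. A link between *Polrmt* and the members' levels was not tested.

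Genes that process and stabilise mitochondrial RNA had a median log2 fold change of 0.034 over 21 genes, beside 0.14 over all tested genes. At an adjusted p under 0.05, 1 of 21 rose, where 3.52% of all tested genes rose and 1.97% fell. *Pnpt1*, the mitochondrial polynucleotide phosphorylase, which is also induced by interferon, averaged 15.6 ± 1.37 TPM in OSKA − 4OHT and 27.4 ± 0.685 TPM in OSKA + 4OHT (SD, n = 3 each). The log2 difference was 0.80 (limma adjusted p = 0.0419), a change of less than 2-fold. In 14 alternative fits the log2 difference stayed between 0.65 and 0.86, and the adjusted p was above 0.05 in 11 of them, at up to 0.144. *Lrpprc*, which protects mitochondrial mRNAs and their tails, read 15.9, 17.0 and 34.1 TPM against 19.5, 20.1 and 17.4 TPM, a log2 fold change of −0.14 (adjusted p = 0.828). In the large subunit of the mitochondrial ribosome, 40 of 49 genes were above 0 (59.3% of all tested genes were) and 1 rose, *Mrpl27*, from 28.7 ± 3.72 to 56.8 ± 11.6 TPM (limma adjusted p = 0.0482, above 0.05 in 11 of 14 alternatives, at up to 0.140). In the small subunit 28 of 32 were above 0, with 0 past the threshold. None of the other lists had a gene past the threshold. They were mitochondrial DNA replication (14 genes tested, median log2 fold change 0.14), translation factors (13 genes, 0.26), assembly of complex I (15 genes, 0.13), assembly of complexes III to V (29 genes, 0.25), regulators of mitochondrial biogenesis (8 genes, 0.56) and mitochondrial structure (20 genes, 0.25). The highest value of the biogenesis list equals the lowest of the pluripotency markers below, 0.81778108, which points to a gene held by both lists.

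The summed levels of fibroblast, pluripotency and macrophage markers did not overlap between the groups, each at an exact p of 0.1, the smallest the design allows, whereas those of endothelial markers (exact p = 0.2) and of histone genes (exact p = 0.5) did. Summed TPM of 12 fibroblast markers was 10052 to 11664 in OSKA − 4OHT and 6626 to 7912 in OSKA + 4OHT, and of 12 pluripotency markers 28.6 to 44.9 and 129.8 to 152. Of 10 tested pluripotency markers 6 rose at an adjusted p under 0.05, where 3.52% of all tested genes rose and 1.97% fell. *Dppa5a* was listed at 0 in 3 of 3 OSKA − 4OHT libraries and at 16.4 to 25.7 TPM in OSKA + 4OHT. Of 12 tested fibroblast markers 4 fell, most of all *Pdgfrb*, and 2 rose, most of all *Lum*. The adjusted p by limma was above 0.05 in 2 of 14 alternative fits for *Pdgfrb*, with the replicate block (0.0648) and without OSKA + 4OHT replicate 1 (0.0542), and in 1 of 14 for *Lum*, with the block (0.0574). The sum of 13 macrophage markers was 184 to 224 and 128 to 142 TPM. *Lyz2* made up 95.2 TPM of a mean sum of 206.6 TPM in OSKA − 4OHT and 51.8 of 137.2 TPM in OSKA + 4OHT. The gap between the groups in this sum therefore leans on 1 gene. Of 12 tested macrophage markers 1 fell, *Lyz2*, at 95.2 and 51.8 TPM on average, and 3 had a log2 fold change above 0, *Cd68* (0.34), *C1qa* (0.12) and *Itgam* (0.0067). The adjusted p of *Lyz2* by limma was 0.0299, and it was above 0.05 in 7 of 14 alternative fits. The sum of 6 endothelial markers was 21.4 to 29.9 TPM in OSKA − 4OHT and 28.1 to 38.2 TPM in OSKA + 4OHT, and that of 10 histone genes, whose mRNAs lack a polyA tail, was 232 to 403 and 208 to 327 TPM. The part of any of these in the members' levels was not tested.

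Among 8773 nuclear genes averaging 10 TPM or more, those whose log2 level over the 6 libraries was most like the mean log2 level of the members included *Pdpk1* (Pearson r = 0.993), *Tpcn1* (0.974), *Pter* (0.956) and *Slc50a1* (0.948). *Pdpk1*, the kinase that phosphorylates the activation loop of AKT, read 40.1, 22.7 and 35.8 TPM in OSKA − 4OHT and 28.5, 23.1 and 56.8 TPM in OSKA + 4OHT. These 4 had their highest library in OSKA + 4OHT replicate 3, as 8 of the members did. These are the extremes of many genes ranked over 6 points that share library and depth, and they are given as a description.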

How the data were processed

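The 6 libraries, 3 wells a group, were trimmed with Trim Galore and quantified with Salmon against a mouse transcriptome, and the authors deposited TPM per gene. Annotation release and versions are not given in the sources used here. The authors' own comparison columns (a log2 fold change, a log2 average level, an F score and a p-value, per the file headers) were not used. TPM holds no read total, so depth is relative and inferred. The columns were joined by Ensembl identifier to GENCODE M21, which gave a symbol to 54097 of 54331 genes. The members and all gene lists were chosen with earlier results of these data known.

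Log2(TPM + 0.5) of genes averaging 1 TPM or more was fitted with limma 3.58.1 (R 4.3.3, trend, no block), with Benjamini-Hochberg adjustment over all genes tested. Fold changes are on that scale. Sums and shares were compared by exact permutation tests (Python 3.11.15, pandas 2.3.3). Effective lengths assumed a fragment of 250 ± 25 bases. Shared sequence was counted as identical 50-base windows, on the same strand, between annotated transcripts. The script was tested on simulated data. Alternatives were another pseudocount, no filter, other scalings, a replicate block, no variance trend, leaving out each library and adding nuclear copies. A count test was not run, since the file holds no counts.

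Named genes were the members, *mt-Nd3*, *mt-Nd4l*, *mt-Nd6*, *mt-Rnr1*, *mt-Rnr2*, *Polrmt*, *Tfam*, *Tfb2m*, *Lrpprc*, in each list the gene with the largest rise and fall at an adjusted p under 0.05, nuclear genes sharing windows with a member, and the 5 genes most like the members' mean. The remaining nuclear genes with shared windows stood at or under 15.1 TPM in each library, apart from *Gm13341* and 1 copy of part of *mt-Atp6*. That copy and 1 of the 5 genes most like the mean are not reported here.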

Additional observations from a re-analysis of the deposited data

How the results depend on the processing

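In 15 alternative fits 0 of 10 members were called, with adjusted p of 0.272 or more. Of 150 values, 126 kept their sign, 23 changed it and 1 was 0, *mt-Atp8* under quantile normalization, which sets the highest gene of every library to 1 value. With the trimmed mean of log ratios *mt-Nd1* was −0.018, *mt-Nd2* −0.063, *mt-Nd6* −0.048 and *mt-Rnr1* −0.0024, with quantile normalization *mt-Co2* was 0.040, and with copies added *mt-Nd4* was 0.023, *mt-Co2* 0.024 and *mt-Atp6* −0.10. These scalings moved the median of all genes from 0.14 to 0.040 and −0.0047. With 1 library left out, *mt-Nd5* ran from 0.0041 to 0.29, *mt-Co1* from 0.034 to 0.22 and *mt-Atp8* from −0.34 to −0.030. Leaving out 1 library gave ranges of −0.12 to 0.21 (*mt-Nd1*), −0.17 to 0.16 (*mt-Nd2*), −0.26 to 0.052 (*mt-Nd4*), −0.21 to 0.090 (*mt-Co2*), −0.68 to 0.47 (*mt-Co3*), −0.27 to 0.037 (*mt-Cytb*), −0.14 to 0.32 (*mt-Atp6*), −0.10 to 0.20 (*mt-Nd6*), −0.33 to 0.21 (*Tfam*) and −0.34 to 0.20 (*Lrpprc*). *Tfam* was −0.00018 with a pseudocount of 0.1, −0.11 with the trimmed mean, −0.14 with quantile normalization and −0.0085 with genes outside the mitochondrial genome rescaled to the full total.

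The difference in the members' share, −0.49 percentage points, was 0.46 without *mt-Atp8*, 0.50 weighted by effective length (an alternative chosen after seeing the data) and −2.69 to 0.75 with 1 library left out. The calls over all genes, 441 higher and 210 lower, were 367 and 282 with the trimmed mean, 335 and 296 with quantile normalization, and 111 to 303 higher and 63 to 127 lower with 1 library left out. The replicate numbers did not pair the samples (correlations of same-numbered deviations 0.024, 0.034 and 0.084), and with the number as a block 31 and 16 were called. The cause was not tested. Few inferred reads backed *mt-Nd6* (about 122 to 278), *mt-Nd4l* (about 255 to 472), *mt-Rnr1* (about 327 to 715) and *mt-Atp8* (1098 to 1857). For *mt-Nd6* an effective length of 250 bases gave whole numbers, 113 to 257 reads. Whether depth limits any of these genes was not tested.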
